A study of Mus musculus with 4 samples.

Results

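RNA of the dorsal raphe nucleus from stressed mice lacking the dopamine D2 receptor was set against RNA of the same region from wild-type mice that were not stressed. The comparison uses 2 of the 4 arrays of the series, chosen by the genotype and condition in their labels, and every gene that a probe names. Of 16383 such genes, 15607 gave a spot above the detection limit on at least 1 of the 2 arrays and were compared. The first array carried RNA of D2R-KO mice put through forced swimming, 6 min a day for 4 days in a row, with tissue taken 12 h after the last swim. The second carried RNA of wild-type mice (WT) that did not swim. The remaining arrays, from stressed WT mice and from stressed D2LR-KO mice, which lack the long form of the receptor, went through the same swims and are given beside the results as values. Each array held a pool of 5 male mice aged 10 weeks on the C57BL/6J background, and the sources used here do not say how the knockout alleles were made.

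Stress and genotype differ at once between these 2 arrays, and no array of non-stressed D2R-KO mice was analysed here, so their parts in any value below cannot be told apart. With 1 array per group there is no replicate error and no test. The number of arrays limits the precision, and the words higher and lower refer to 2 pools.

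The dorsal raphe is the largest group of serotonergic neurons in the brain, and its axons reach most of the forebrain. These neurons make serotonin with tryptophan hydroxylase 2, pack it into vesicles with the vesicular monoamine transporter and take it back with the serotonin transporter. The D2 receptor couples to inhibitory G proteins, and its long and short forms arise from 1 gene by alternative splicing. Forced swimming is a strong stressor that drives glucocorticoid release and activity-dependent transcription. The nucleus lies below the cerebral aqueduct, near ependyma, periaqueductal grey and dopamine neurons of the midbrain, and a dissection of it can take in neighbouring tissue.

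The pools were alike for most genes. The log2 fold (stressed D2R-KO minus non-stressed WT, on a log2 scale of background-corrected signal plus 50) had a median of 0.006 over all genes and quartiles of -0.07 and 0.09. Across genes, which are not replicates, the signals of the 2 arrays correlated at r = 0.99. At least 2-fold higher in stressed D2R-KO were 18 genes (0.115% of those compared), and at least 2-fold lower were 50 (0.32%), 0.436% in all. All 68 were detected on both arrays, and none was a predicted gene. Some were detected only just, such as Cxcl1 on stressed D2R-KO (spot median 40.4, limit 39.5) and Prl on non-stressed WT (42.3, limit 40.2). The size of such folds depends on the constant added to the signal. A 4-fold line left 3 genes on the higher side and 6 on the lower. As a scale for these folds, 207 genes had several compared probes, whose log2 folds had a root mean square SD of 0.155 within a gene. Control spots printed 24 times gave SDs of 0.129 and 0.138 for the same difference. The probe and control figures cover the array surface and not mice or labelling. The probe figure was not split by signal, whereas all 68 genes lay at or above the median signal of detected genes. Probes differed by at least 2-fold in 1 of the 207 genes, Fam177a (-0.25 and 0.91). Just inside the 2-fold line lay Hoxb5 (log2 fold 1.01) and Plagl1 (-1.01), and just outside lay Dbp (0.97) and Dnajb1 (-0.99).

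**Figure D1:**
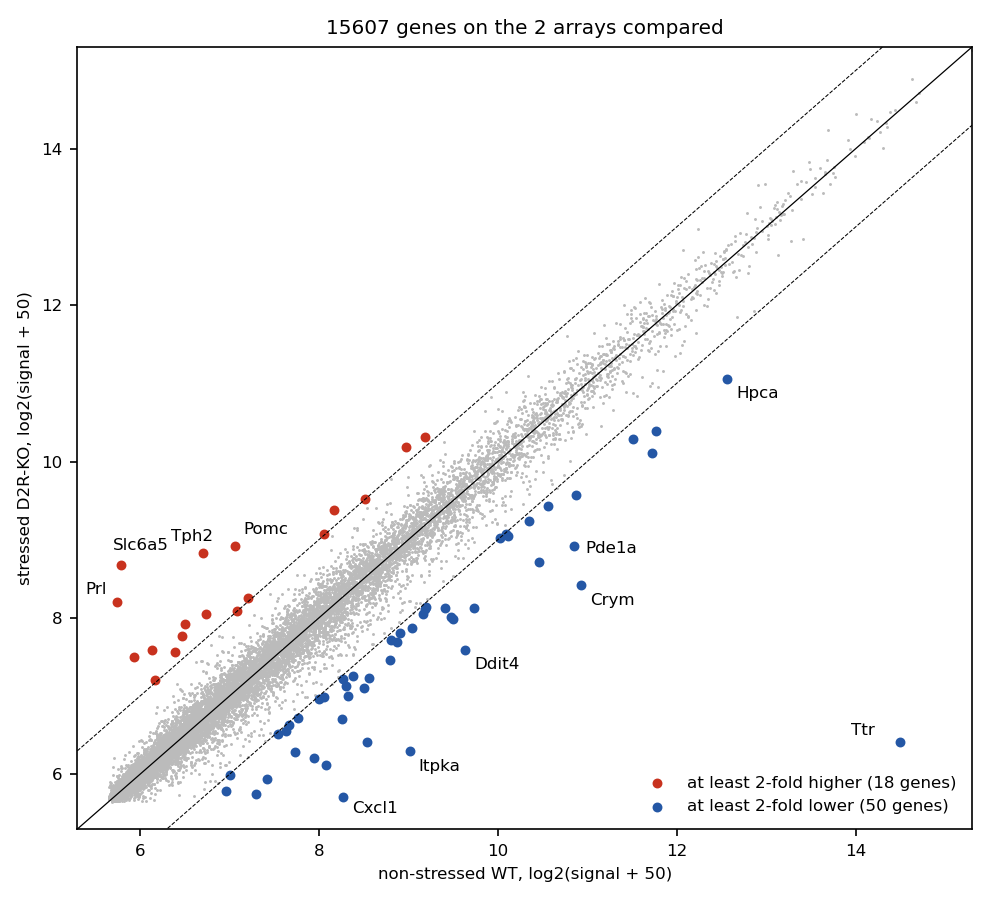
Signal of 15607 genes, as log2(signal + 50), on the non-stressed WT array (horizontal axis) and the stressed D2R-KO array (vertical axis), 1 point a gene. The solid line marks equal signal and the dashed lines 2-fold. Red points are the 18 genes at least 2-fold higher and blue points the 50 at least 2-fold lower in stressed D2R-KO, with Ttr far to the lower right.

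Folds past this line were found among the brighter genes. Of the 68 genes, 0 lay in the dimmest of 4 equal bins of mean signal and 32 in the brightest, and the SD of the log2 fold was 0.061 in the dimmest bin against 0.311 in the brightest. Among the 7935 genes at or above the median signal of detected genes, the shares past 2-fold were 0.227% higher and 0.63% lower. The authors' deposited intensities, linear values scaled to a median of 25 on each array, are therefore given beside the folds. Unless stated otherwise they stand with non-stressed WT first, then the stressed groups in the order WT, D2R-KO, D2LR-KO. Folds compare a probe with itself between arrays. Where a level is set against the array median, it also depends on the probe and does not rank genes by abundance. The gene lists used below were chosen with earlier results of these data known, so their counts and medians are descriptive.

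The targeted gene came first. Drd2, the D2 receptor gene, had deposited intensities of 26.8, 43.8, 20.9 and 48.3. Its log2 fold between the 2 arrays compared was -0.16, short of 1.5-fold, and its level lay close to the array median on both. The sources used here do not place this probe relative to the deleted part of the gene, so its level checks the genotype label little. The genes through which the receptor acts, a list of 33 compared (inhibitory G protein subunits, RGS proteins, GIRK channels, arrestins, G protein receptor kinases, adenylyl cyclases and Akt and GSK3 kinases), had 0 members past 1.5-fold in either direction. Their median log2 fold was -0.012. The ends of their range were Gnb1, a G protein beta subunit, at -0.47 and Arrb1, an arrestin, at 0.43.

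Genes that sit near Drd2 on its chromosome arm can stay of donor strain origin after backcrossing. Of 19 compared, 1 passed 1.5-fold on the higher side and 3 on the lower, with a median of -0.004. Over all genes those shares were 0.577% and 1.49%, 2.06% in all, or 1.13% and 2.86% among genes at or above the median signal. The same shares are the comparison for each list count at 1.5-fold that follows. Htr3a, a serotonin-gated ion channel subunit, had intensities of 37.4, 43.0, 5.7 and 14.6 (log2 fold -0.92). Cadm1, a cell adhesion molecule, was at -0.76 and Cryab, a small heat shock protein, at -0.64. Tmprss5, a membrane protease, was at 0.66, but at -0.33 once background was read around the spot. Both knockout arrays were below both WT arrays for Htr3a and Cryab. Whether donor strain sequence had a part in these values was not tested.

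Among serotonergic genes, of 18 compared, 4 were at least 1.5-fold higher and 0 lower, 3 of them past 2-fold, and 14 lay above 0, with a median of 0.19 against 0.006 over all genes. Tph2, which makes serotonin in neurons, had intensities of 31.4, 10.7, 264.6 and 151.5. Slc6a4, the serotonin transporter, had 11.6, 6.8, 89.6 and 43.5. Gchfr, which regulates synthesis of the hydroxylase cofactor tetrahydrobiopterin, had 19.4, 18.5, 87.1 and 60.7. For each of these genes both knockout arrays were above both WT arrays, and the order of the knockouts was the same, D2R-KO above D2LR-KO. The log2 folds were 2.13 for Tph2, 1.46 for Slc6a4 and 1.17 for Gchfr.

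The fourth gene past 1.5-fold was Gata3, a factor that serotonergic neurons depend on. It had intensities of 30.8, 48.8, 77.9 and 39.2 (log2 fold 0.77). Its relative Gata2 had 15.7, 13, 37.7 and 26.3 (0.55), and Slc18a2, the vesicular monoamine transporter, had 702.5, 718.1, 1197.8 and 1132.7 (0.54), but at 1.69 once background was read around the spot. Slc18a2 and Ddc are shared with dopamine neurons. Ddc, the decarboxylase that finishes the synthesis of both amines, was at -0.05, Maob, a monoamine oxidase, at -0.10 and the homeobox factor Lmx1b at 0.05. The summed intensity of the 18 genes was 6269.3 on the non-stressed WT array and 9056.5 on the D2R-KO array. Qdpr, which recycles the tetrahydrobiopterin cofactor in many cell types (log2 fold 0.38), had 2913.9 and 4563.8 of those sums, and without it they were 3355.4 and 4492.7. On the non-stressed WT array, Slc6a4 lay below the array median and Tph2 just above it, levels that also depend on each probe. In tissue of mixed cells, fewer cells of a type and less RNA per cell cannot be told apart, and the amount of raphe tissue in each pool was not tested.

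These calls lean on how background was estimated. With the brightness around each spot as background, Tph2 was at 0.65, Slc6a4 at 0.86 and Gchfr at -0.016, so none of these was past 2-fold and Gchfr changed sign. Each of the 68 genes past 2-fold had 1 compared probe, so averaging a gene's probes, the last of the 8 other settings, could not move it. In every setting other than the background around the spot, Tph2 and Slc6a4 stayed above 2-fold.

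Receptors for serotonin were listed apart. Htr1a, the inhibitory autoreceptor on serotonergic cells, had intensities of 28.7, 22.6, 33.7 and 21.7 and a log2 fold of 0.11, but at -0.23 once background was read around the spot. Of 13 receptor genes compared 0 were at least 1.5-fold higher and 1 lower, Htr3a, with a median of -0.04. Among dopamine neuron genes and dopamine receptors, 2 of 14 were at least 1.5-fold lower and 0 higher, with a median of -0.06. Slc6a3, the dopamine transporter, had 454.3, 395.4, 278.4 and 436.6 (-0.78), so the D2R-KO array alone was low. Nr4a2, a factor of dopamine neurons and an early response gene, had 149.2, 83.0, 85.7 and 77.9 (-0.70), low on all 3 stressed arrays. Th, tyrosine hydroxylase, was at -0.41.

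Slc6a5, the glycine transporter of inhibitory neurons of the hindbrain and spinal cord, was the gene furthest on the higher side. Its intensities were 3.0, 2.4, 231.9 and 53.2, near background on both WT arrays and clear of it on both knockout arrays. The log2 fold was 2.88, or 7.36-fold, and it lay between 1.97 and 5.86 in the 7 settings that can move it. It was the only 1 of 11 glycine genes compared that passed 1.5-fold. Slc6a9, the glial glycine transporter, was at 0.42, and Slc32a1, the vesicular carrier for glycine and GABA, had 392.5, 430.0, 624.4 and 354.6 (0.47). Glra1, a glycine receptor subunit, was at -0.04.

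Slc6a5 is also in the list for pons, medulla and spinal hindbrain, where it was 1 of 3 genes of 23 past 1.5-fold on the higher side, with Hoxb5 and Hoxa5, and 0 were lower. A count of 20 lay above 0, but the median was 0.054. Hoxb5, a homeobox gene expressed from the caudal hindbrain backwards, had 50.6, 4.2, 141.1 and 108.0 (1.01, and 0.92 once background was read around the spot), and Hoxa5 had 31.3, 1.8, 77.2 and 95.6 (0.75). For both Hox genes the knockout arrays were highest and stressed WT was near background, with non-stressed WT between them. Of 14 Hox genes compared, 12 lay above 0, 2 past 1.5-fold, with a median of 0.14. The summed intensity of the 22 genes other than Slc6a5 was 269.4, 228.5, 480.2 and 429.8. Mab21l1, a developmental gene of the midbrain and other tissues, had 57.5, 62.9, 162.9 and 110.6 (1.05, but 0.25 once background was read around the spot).

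Pvalb and Nefh were past 2-fold too. Pvalb, the calcium buffer parvalbumin of fast-spiking cells, had 140.7, 124.6, 405.5 and 336.8. Its log2 fold was 1.21, and 2.10 with the background around each spot. Nefh, the heavy neurofilament, had 186.1, 216.1, 456.4 and 294.6 (1.01), but at -0.60 once background was read around the spot, and the medium chain Nefm was at 0.54. Of 16 pan-neuronal genes, 1 was at least 1.5-fold higher and 0 lower, with a median of 0.10. Cerebellar markers other than Pvalb did not pass 1.5-fold, 1 of 14 in all, with a median of -0.048. Doc2g, a relative of the calcium sensors of vesicle release, had 12.5, 13.8, 59.3 and 25.9 (1.04, but 0.60 once background was read around the spot).

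Hormone genes of the anterior pituitary were also on the higher side. Prl, prolactin, had intensities of 1.9 on non-stressed WT, 156.3 on stressed D2R-KO and 1.3 on stressed D2LR-KO, with no deposited value on stressed WT. Gh, growth hormone, had 32.9, 42.6, 135.3 and 39.1. Pomc, the precursor of corticotropin and beta-endorphin, had 48.9, 71.5, 283.5 and 49.6. In each case the D2R-KO array stood alone, and the D2LR-KO array was with the WT arrays. The log2 folds were 2.47 for Prl, 1.86 for Pomc and 1.32 for Gh, and Prl and Pomc were past 2-fold in all 7 settings that can move them. Prl lay between 1.74 and 5.76 in those settings. Gh was at 0.81 once background was read around the spot.

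Those 3 genes were the only ones of the pituitary list past 1.5-fold on the higher side, of 18 compared. Cga, the subunit shared by the glycoprotein hormones, had 1.0, no value, 4.5 and 1.2. Lhb and Fshb, the beta subunits of the gonadotropins, stayed between 2.2 and 5.9 on all 4 arrays, and Tshb, the thyrotropin subunit, was not detected on either array compared. Trhr, the thyrotropin-releasing hormone receptor, had 43.0, 11.4, 11.2 and 20.1 (-0.83). The median of the list was 0.024, and its summed intensity was 358.0, 404.7, 819.9 and 361.0. Without Prl, Gh and Pomc the sum was 274.3 on non-stressed WT and 244.8 on D2R-KO. Whether pituitary RNA in the pool had a part in these values was not tested.

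The start of the Prl gene is shown because Prl, of the 3 hormone genes, lay nearest to background on the other arrays. POU1F1 (Pit-1) is the pituitary factor that switches on prolactin and growth hormone, and a short core of its sites, TATNCAT, was searched on both strands in the 250 bases before each start in RefSeq (build GRCm38.p6). The 200 bases before the Prl start, chr13:27057370-27057569, plus strand, hold 2 matches, in capitals.
Prl: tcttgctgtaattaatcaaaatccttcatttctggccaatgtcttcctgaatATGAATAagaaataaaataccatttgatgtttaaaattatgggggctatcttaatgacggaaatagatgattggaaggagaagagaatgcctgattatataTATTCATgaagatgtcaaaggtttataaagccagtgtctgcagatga
The matches begin 148 and 47 bases before the start. Of 27025 genes with a promoter in RefSeq, 9.16% hold at least 1 match, and 1 of 12 pituitary list genes with a promoter did, Prl itself. These are matches of letters and not measured binding.

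The rest of the higher side were single genes of varied kinds. Mbl2, a liver lectin of the complement system, had 6.1, 8.7, 81.5 and 5.7 (log2 fold 1.56), while albumin, Alb, was at or below 1.3 on all 4 arrays. Jaml, an adhesion molecule of leukocytes, had 23.6, 33.6, 121.5 and 37.7 (1.42). As with the hormone genes, D2R-KO alone was high for both. Tnnt1, slow skeletal troponin T, had 22.1, 77.0, 105.7 and 42.7 (1.30), with Ckm, muscle creatine kinase, at -0.02. Rfpl4 had 128.4, 519.8, 324.0 and 219.5 (1.02) and was highest on stressed WT. Anp32a, a nuclear phosphatase inhibitor, had 267.8, 405.4, 751.4 and 673.2 (1.22), and Rsrp1, an arginine- and serine-rich protein, had 315.3, 498.1, 829.8 and 749.6 (1.13). For these last 2, all stressed arrays were above non-stressed WT, and the knockouts were highest. Once background was read around the spot, every gene past 2-fold in this paragraph fell short of that line. The log2 folds were then 0.98 for Mbl2, 0.67 for Jaml, 0.80 for Tnnt1 and 0.50 for Rfpl4. Anp32a was at 0.15 and Rsrp1 at 0.34.

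**Figure D2:**
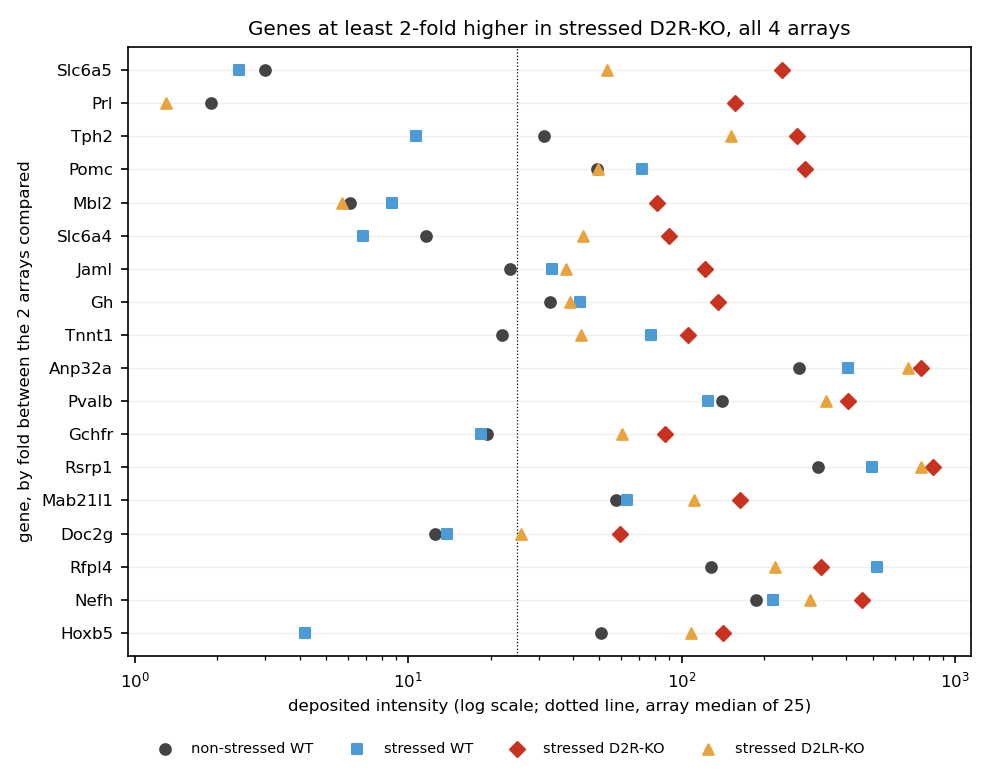
Deposited intensity (log axis) of the 18 genes at least 2-fold higher in stressed D2R-KO, on each of the 4 arrays, ordered by log2 fold. By the log2 signals behind the folds, stressed D2R-KO (red diamonds) was highest for 16 of them. In the intensities plotted here it was also highest for Rsrp1 (829.8 against 749.6 on D2LR-KO). Prl has no point for stressed WT. Slc6a5 and Tph2 were also above both WT arrays on D2LR-KO (53.2 and 151.5), and Prl, Gh and Pomc were not.

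Across the 18 genes, by the log2 signals behind the folds, stressed D2R-KO was the highest of the 4 arrays for 16. The D2LR-KO array was past 2-fold above non-stressed WT for 5, and stressed WT for 2. Since these arrays share the non-stressed WT control, and the 18 genes were picked for a high D2R-KO value against it, the counts are descriptive. A total of 4 of the 18 stayed at least 2-fold higher in all 7 settings that can move them, namely Slc6a5, Prl, Pomc and Pvalb. With the background around each spot those 4 were the ones left past 2-fold, and 16 kept their direction.

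The lower side was led by transthyretin. Ttr, which carries thyroid hormone and retinol and is the main secreted protein of choroid plexus, had deposited intensities of 12884.0, 5720.2, 20.3 and 193.1. The log2 fold was -8.09, or 273-fold, and it lay between -9.24 and -7.05 in the 7 settings that can move it. The D2R-KO array was thus below the array median for a gene that was among the brightest on both WT arrays. It was the only gene past 8-fold.

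Genes of choroid plexus and ependyma were lower as a list, which was chosen, like the others, with earlier results of these data known. Of 16 compared, Ttr among them, 11 were at least 1.5-fold lower and 0 higher, 5 of these past 2-fold, with a median of -0.81 that was also below 0 in the 8 other settings. Folr1, the folate receptor of choroid epithelium, had 62.8, 13.4, 2.2 and 3.9 (-1.54). Ecrg4, a secreted protein of choroid plexus, had 151.2, 39.1, 31.9 and 44.8 (-1.55, but -0.77 once background was read around the spot), and Calml4, a calmodulin-like protein, had 43.5, 10.0, 2.9 and 2.4 (-1.18). Non-stressed WT stood alone above the other 3 arrays for these genes. Kcne2, a potassium channel subunit, had 45.6, 9.9, 7.6 and 4.0 (-1.01), Clic6, a chloride channel protein, was at -0.98 and Kl, the anti-ageing hormone klotho, was at -0.81. Enpp2, the lysophospholipase autotaxin, which oligodendrocytes make too, had 2368.9, 853.8, 2171.6 and 1812.3 (-0.33). Foxj1, the factor of ciliated ependymal cells, was at 0.15, but at -0.21 once background was read around the spot.

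The summed intensity of the 16 genes was 16095.6, 6967.4, 2511.6 and 2452.9. Without Ttr it was 3211.6 on non-stressed WT and 2491.3 on D2R-KO, most of it Enpp2. Of those 15 genes, 10 were at least 1.5-fold lower, 4 of them past 2-fold, and the median log2 fold was -0.81. The share of choroid plexus in each pool was not tested. Meningeal and fibroblast genes were partly lower as well. Of 16 compared, 4 were at least 1.5-fold lower and 0 higher (median -0.23), with Dcn, the matrix proteoglycan decorin, at -0.74. Igf2, a growth factor of meninges and choroid plexus, had 567.6, 244.3, 355.3 and 1263.6 (-0.79), but at 1.78 once background was read around the spot.

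Genes of forebrain excitatory neurons were also on the lower side. Of 25 compared in the list for cerebral cortex and hippocampus, 12 were at least 1.5-fold lower and 1 higher, 8 of them past 2-fold, with a median of -0.57. Itpka, the inositol trisphosphate kinase of dendritic spines, had 277.8, 292.7, 16.4 and 104.0. Crym, a thyroid hormone binding protein of cortex and striatum, had 1128.1, 857.5, 186.6 and 440.9. Hpca, the calcium sensor hippocalcin, had 3547.1, 4733.4, 1413.9 and 1042.5. In all 3, both knockout arrays were below both WT arrays, and stressed WT was within 2-fold of non-stressed WT. The log2 folds were -2.72, -2.52 and -1.51.

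Pde1a, Icam5 and Neurod1 were lower on stressed WT too. Pde1a, a calmodulin-dependent phosphodiesterase, had 1072.9, 486.2, 284.7 and 478.5 (-1.93). Icam5, an adhesion molecule of forebrain dendrites, had 793.6, 220.3, 241.4 and 359.3 (-1.75). Neurod1, a neuronal differentiation factor, had 232.2, 46.7, 78.2 and 134.4 (-1.34, but -0.73 once background was read around the spot). Non-stressed WT was the highest array for all 3. Nptx1, a synaptic pentraxin, had 247.5, 250, 97.9 and 63.0 (-1.18), and Nrgn, the calmodulin-binding protein neurogranin, had 618.3, 1094.5, 316.1 and 310.4 (-1.07). Neurod6 was at -0.99 and Camk2a, the calcium kinase of excitatory synapses, at -0.67. Lamp5, a membrane protein of some cortical neurons, went the other way with 372.5, 475.8, 791.8 and 485.0 (0.86). Tbr1 and Emx1, factors that define cortical excitatory neurons, lay below the array median on all 4 arrays.

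Proteins of the postsynaptic density and of calcium signalling overlap with that list. Of 24 compared, 11 were at least 1.5-fold lower and 0 higher, 6 of them past 2-fold, with a median of -0.39. Hpcal4, a neuronal calcium sensor, had 375.2, 513.8, 145.1 and 186.4 (-1.28, but -0.88 once background was read around the spot). Ppp3ca, the catalytic subunit of calcineurin, was at -0.73, Pde1b at -0.63 and Rasal1, a Ras inhibitor, at -0.63. The scaffold genes Dlg4 (-0.29), Shank2 (-0.03) and Shank3 (0.002) did not pass 1.5-fold.

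AMPA receptors, which carry fast excitatory transmission, were split. Of 14 subunit and auxiliary genes, 4 were at least 1.5-fold lower and 0 higher, while the median was 0.009. Gria2, the subunit that makes the channel tight to calcium, had 607.3, 359.3, 324.2 and 355.8 (-1.02, but -0.47 once background was read around the spot). Cnih3, an auxiliary subunit, had 159.8, 168.2, 47.3 and 81.5 (-1.32), and Cnih2 was at -0.77. Gria1 had 1685.6, 997.1, 818.3 and 528.5 (-1.22), but at 4.11 once background was read around the spot. Gria3 (-0.01) and Gria4 (0.25) did not pass 1.5-fold. In the wider list of glutamate transmission 4 of 25 were at least 1.5-fold lower, Gria1 and Gria2 among them, together with Glul and Slc1a3 of astrocytes. Glul, glutamine synthetase, had 728.9, 90.6, 474.3 and 84.5 (-0.77), so that the D2R-KO array was the nearest to non-stressed WT.

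Some receptors for GABA lay lower. Of 18 GABA genes compared, 5 were at least 1.5-fold lower and 0 higher, 0 of them past 2-fold, with a median of -0.22. Over all genes, 1.49% were at least 1.5-fold lower, or 2.86% of those at or above the median signal. The channel subunits Gabrb1 (-0.73), Gabra2 (-0.73) and Gabra4 (-0.70) were among them. Gabrb1 had 364.5, 214.6, 224.7 and 226.0, low on all 3 stressed arrays. Gad2, which makes GABA, was at 0.05, but at -0.26 once background was read around the spot.

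Neuropeptide genes of forebrain interneurons and other neurons were lower in part. Of 39 precursors compared, 7 were at least 1.5-fold lower and 1 higher, the latter Pomc, with a median of -0.052. Tac2, neurokinin B, had 71.4, 50.6, 6.5 and 12.6 (-1.48). Npy, neuropeptide Y, had 185.7, 129.9, 53.0 and 96.2 (-1.41), and Cck, cholecystokinin, had 2000.2, 1393.0, 872.7 and 1151.6 (-1.38). D2R-KO was the lowest array for all 3, followed by D2LR-KO. With the background read around the spot, the log2 folds were short of 2-fold, at -0.49 for Tac2, -0.55 for Npy and -0.85 for Cck. Pmch, melanin-concentrating hormone of the lateral hypothalamus, had 79.8, 73.4, 24.2 and 36.5 (-1.02). Cort (-0.87), Cartpt (-0.78) and Tac1 (-0.65) were past 1.5-fold. Npy2r, a receptor for neuropeptide Y, had 477.8, 245.7, 145.1 and 148.4 (-1.62). Penk, proenkephalin, was at 0.57 and Sst, somatostatin, at -0.41.

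A pair of developmental factors of the forebrain were past 2-fold. Dlx1, of forebrain GABA neurons, had 116, 69.9, 13.5 and 21.1 (-1.73), whereas Dlx2, Dlx5 and Dlx6 lay between -0.37 and -0.30. Lhx2, of cortex and diencephalon, had 193.3, 86.9, 61.0 and 74.6 (-1.33, but -0.34 once background was read around the spot). In the list for hypothalamus and thalamus 2 of 19 were at least 1.5-fold lower, Lhx2 and Pmch, and 1 was higher, Prkcd, a kinase of thalamic neurons, at 0.71. The share of forebrain tissue in each pool was not tested.

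**Figure D3:**
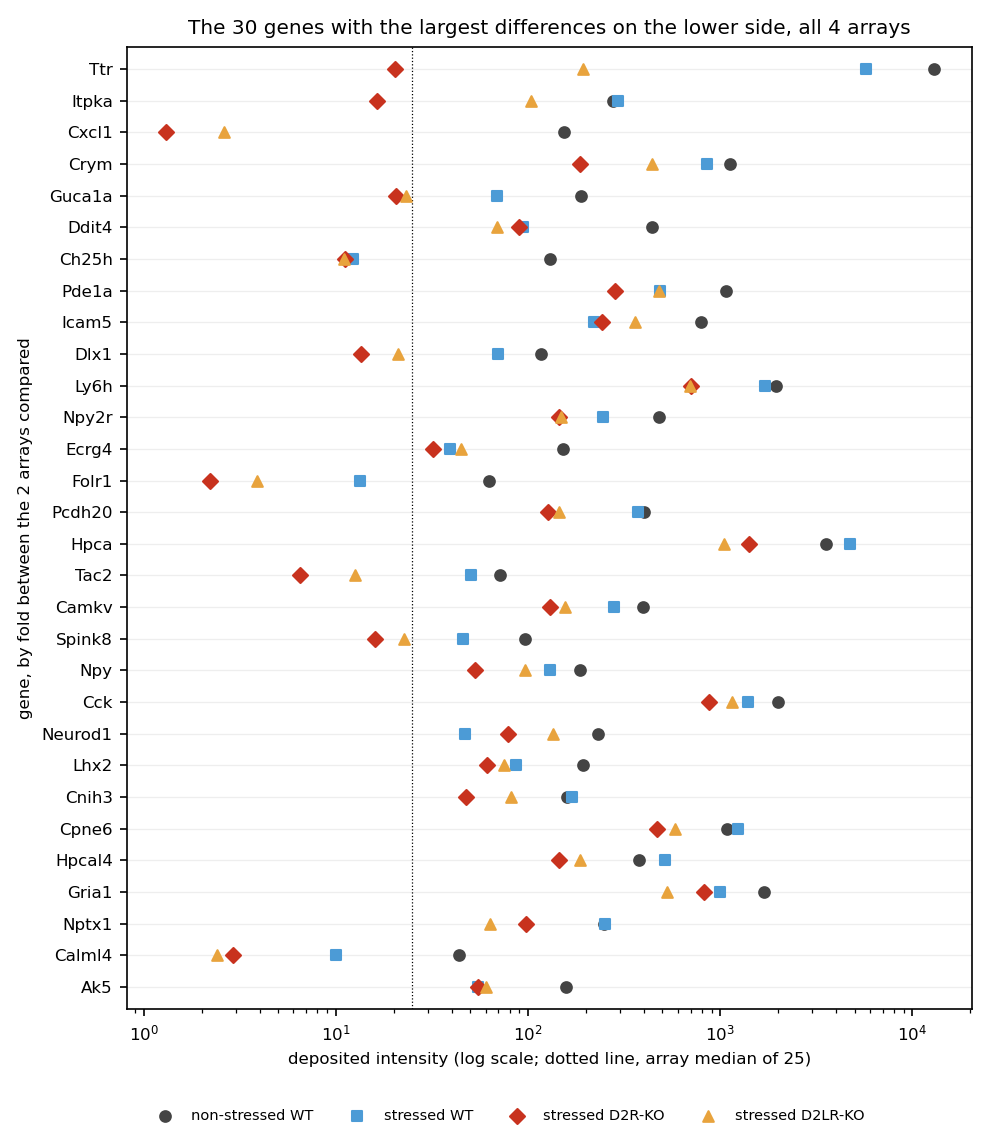
Deposited intensity (log axis) of the 30 genes with the largest log2 folds on the lower side, on each of the 4 arrays, ordered by log2 fold. Stressed WT (blue squares) lies near non-stressed WT (black circles) for Itpka, Crym and Hpca and near stressed D2R-KO (red diamonds) for Ddit4, Ch25h and Icam5. Cxcl1 has no point for stressed WT.

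Cxcl1, Ddit4 and Ch25h were high on non-stressed WT alone. Cxcl1, a chemokine that attracts neutrophils, had 152.9 there, no deposited value on stressed WT, 1.3 on D2R-KO and 2.6 on D2LR-KO (-2.56). With D2R-KO near background, the log2 fold of Cxcl1 lay between -6.06 and -1.51 in the 7 settings that can move it. Ddit4, an inhibitor of mTOR complex 1 that glucocorticoids and hypoxia induce, had 442.1, 94.4, 90.0 and 68.8 (-2.04). Ch25h, cholesterol 25-hydroxylase, had 130.4, 12.3, 11.1 and 11 (-1.95). For Ddit4 and Ch25h the 3 stressed arrays were close to each other. Guca1a, a calcium sensor known from photoreceptors, had 189.3, 68.6, 20.5 and 23.0 (-2.12), with stressed WT between non-stressed WT and the knockouts. Ak5, a neuronal adenylate kinase, had 156.5, 55, 54.6 and 60.0 (-1.17). Lcn2, an iron-binding acute-phase protein, had 99.2, 46.1, 32.8 and 36.7 (-1.04).

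Of 24 chemokine and cytokine genes compared, Cxcl1 was the only 1 at least 1.5-fold lower and 0 were higher, with a median of -0.008. Cxcl2, the closest relative of Cxcl1 in the list, had 12.3 on non-stressed WT and no deposited value on the other arrays. Nfkbia, the inhibitor of NF-kB that NF-kB itself induces, had 601.8, 212.2, 349.7 and 296.2 (-0.89). The starts of Cxcl1 and Nfkbia are shown because both are textbook NF-kB targets and were highest on non-stressed WT. A core of its sites, GGG, then 3 bases of any kind, then TTCC, was searched on both strands as before. It is in capitals in the 120 bases before the start, at chr5:90891125-90891244, plus strand, for Cxcl1 and chr12:55492648-55492767, minus strand, for Nfkbia.
Cxcl1: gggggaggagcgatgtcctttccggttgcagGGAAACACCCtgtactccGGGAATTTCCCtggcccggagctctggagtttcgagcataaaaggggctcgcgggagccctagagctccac
Nfkbia: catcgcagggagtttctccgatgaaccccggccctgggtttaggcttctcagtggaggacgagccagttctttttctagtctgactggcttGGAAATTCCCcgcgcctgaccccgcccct
Cxcl1 holds 3 matches, of which those that begin 71 and 70 bases before the start overlap, and Nfkbia holds 1. At least 1 match was in 5.31% of the 27025 genes, in 3 of 38 genes at least 2-fold lower with a promoter in the table and in 2 of 14 at least 2-fold higher. It was also in 5 of 18 chemokine and cytokine genes with a promoter, namely Csf1, Cxcl1, Cxcl10, Cxcl2 and Il6. Of these 5, Cxcl1 alone passed 1.5-fold. A match is no evidence that the factor binds there.

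Among glucocorticoid-induced genes and steroid receptors, 5 of 24 were at least 1.5-fold lower and 0 higher, with a median of -0.096. Without Ddit4, Lcn2 and Nfkbia the median was -0.001. Beside Ddit4, Lcn2 and Nfkbia these were Cebpb, a transcription factor, at -0.66 and Sgk1, a kinase, with 691.4, 226.2, 429.7 and 173.2 (-0.83), but at 0.87 once background was read around the spot. The standard glucocorticoid targets Fkbp5 (-0.32) and Tsc22d3 (0.14) did not pass 1.5-fold.

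Immediate early genes, which neurons switch on within minutes of activity, lay lower as a list. Of 30 compared, 5 were at least 1.5-fold lower and 0 higher, 0 of them past 2-fold, with 23 below 0 and a median of -0.27 that was below 0 in the 8 other settings as well. Jun had 302.2, 164.7, 153.0 and 183.7 (-0.95), and Nr4a1 had 108.1, 41.9, 46.3 and 29.6 (-0.87). Fos had 155.9, 32.0, 108.4 and 124.4 (-0.50), and Egr1 was at -0.47. Non-stressed WT was the highest array for each of these. Btg2 (-0.72) and Ccn1 (-0.71) were past 1.5-fold too, and Arc was at 0.09.

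Chaperones help proteins fold under stress. Of 24 heat shock and unfolded protein response genes, 3 were at least 1.5-fold lower and 0 higher, with a median of -0.19. Dnajb1, a co-chaperone, had 921.3, 364.2, 503.5 and 479.2 (-0.99), and Hspb1, a small heat shock protein, had 497.3, 236.7, 261.8 and 381.7 (-0.98). Among clock genes, 1 of 18 was past 1.5-fold. Dbp, a clock output factor, had 235.7, 644.4, 551.1 and 427.7 (0.97), higher on all 3 stressed arrays, while Per1 was at 0.29 and Arntl at -0.18. The sources used here do not give the time of day at which each pool was taken.

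**Figure D4:**
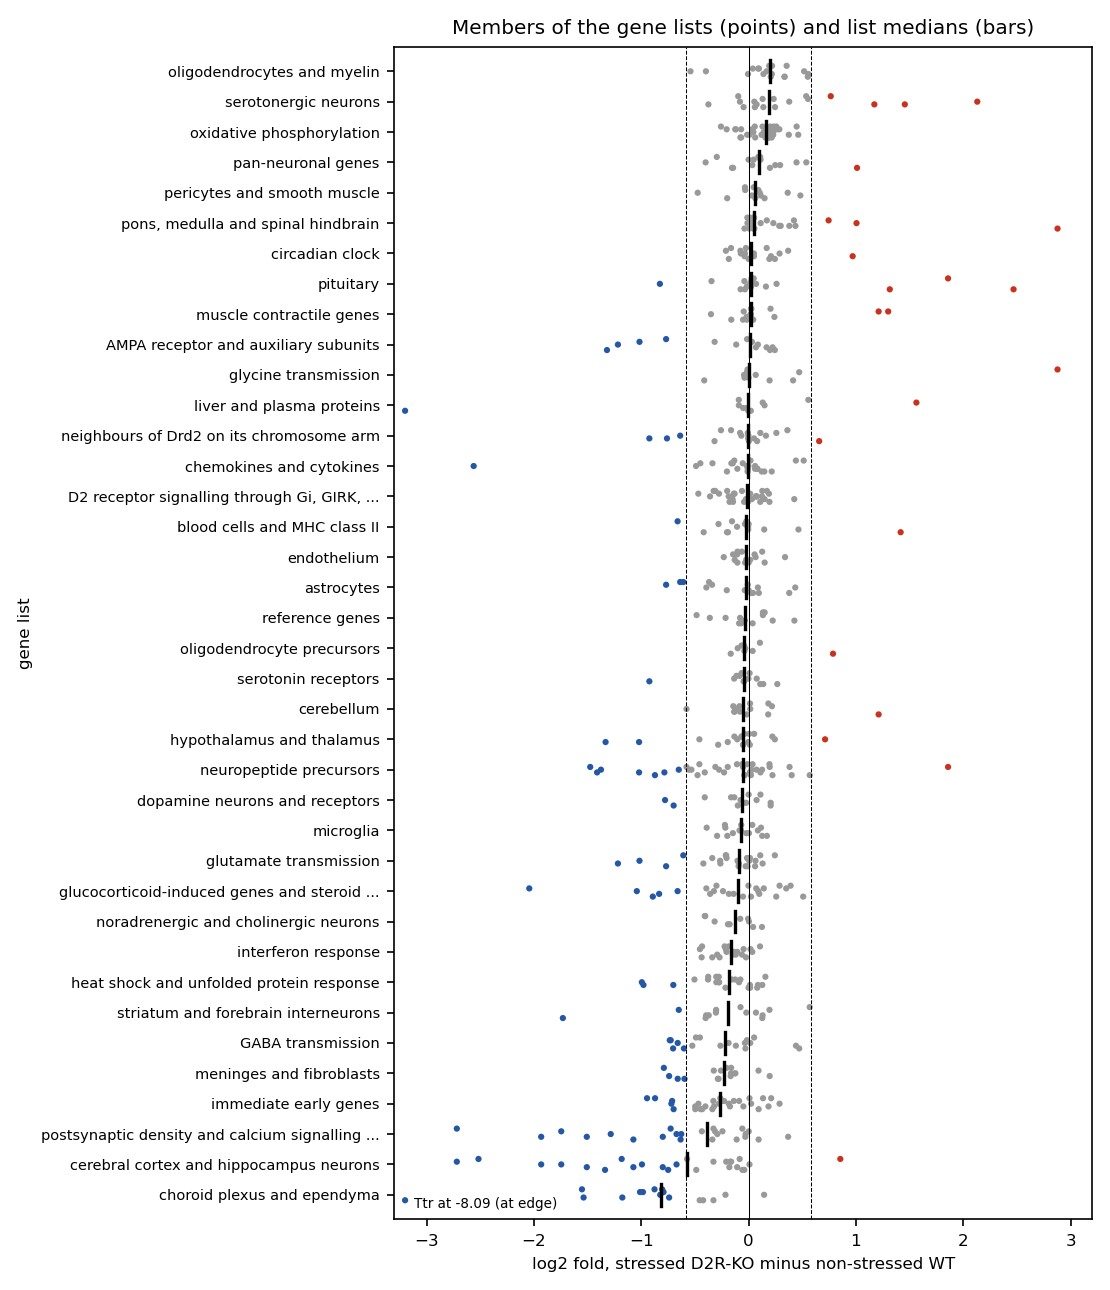
Log2 fold (stressed D2R-KO minus non-stressed WT) of each compared member of 38 gene lists (points; red and blue are past 1.5-fold, dashed lines) with the list median (black bar), ordered by median. The medians run from -0.81 for choroid plexus and ependyma to 0.20 for oligodendrocytes and myelin, and most lists centre near 0 with single members far out. Ttr (-8.09), a member of 2 lists, is drawn at the left edge.

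Markers of several other cell types stayed within 1.5-fold. Microglia (16 genes, median -0.069), endothelium (16, -0.027), pericytes and smooth muscle (13, 0.063) and noradrenergic and cholinergic neurons (10, -0.13) each had 0 members past that line, and the 13 reference genes had 0 too (-0.035). Oligodendrocyte and myelin genes had 0 of 18 past 1.5-fold, but 15 above 0, with a median of 0.20. Trf, transferrin (0.56), Aspa, aspartoacylase (0.55), and Mag, a myelin glycoprotein (0.52), had the largest values. Subunits of oxidative phosphorylation likewise had 0 of 39 past the line, with 31 above 0 and a median of 0.16. Both medians were above 0 in the 8 other settings. Interferon response genes had 0 of 20 past the line, 3 above 0 and a median of -0.17. Astrocyte genes had 3 of 17 at least 1.5-fold lower, Glul, Mlc1 and Slc1a3, and a median of -0.028. Of 9 oligodendrocyte precursor genes 1 was at least 1.5-fold higher (Bcas1, 0.79), with a median of -0.039.

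Several other lists for tissues outside the raphe held few members past 1.5-fold. Of 14 genes of striatum and forebrain interneurons, 2 were at least 1.5-fold lower, Dlx1 and Tac1 (median -0.19). The blood and MHC class II list had 1 of 16 higher, Jaml, and 1 lower, H2-Aa, an MHC class II chain, at -0.66 (median -0.026). Muscle contractile genes had 2 of 16 higher, Tnnt1 and Pvalb (median 0.02), and liver and plasma protein genes had 1 of 11 higher, Mbl2, and 1 lower, Ttr (median -0.003).

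Beyond the lists, 29 of the 68 genes belonged to none of them. On the lower side these included Ly6h, a regulator of nicotinic receptors, with 1947.9, 1709.9, 701.6 and 693.2 (-1.62), and Pcdh20, a protocadherin, with 398.4, 372.3, 127.3 and 145.5 (-1.51). Camkv, a kinase-like calmodulin-binding protein of synapses, had 394.4, 278.1, 130.1 and 156.0 (-1.47), and Cpne6, a brain copine, had 1081.3, 1241.3, 470.5 and 581.5 (-1.30). For these 4 both knockout arrays were below both WT arrays. Spink8, a protease inhibitor gene, had 96.4, 46, 16 and 22.7 (-1.45). A further 15 genes on the lower side, outside the rule for naming, had log2 folds between -1.17 and -1.01.

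Over the 50 lower genes, by the log2 signals behind the folds, D2R-KO was the lowest of the 4 arrays for 38. Non-stressed WT was the highest for 37 and stressed WT for the other 13. Deposited intensities can order the arrays otherwise. Ly6h is among those 13 (log2 signal 11.841 on stressed WT against 11.728), though its intensity was highest on non-stressed WT (1947.9 against 1709.9). The D2LR-KO array was at least 2-fold below non-stressed WT for 31 of them and stressed WT for 12, again with the shared control. For 47 genes the D2LR-KO signal lay closer to D2R-KO than to non-stressed WT, and for 17 the stressed WT signal did. The 50 genes were picked for a low D2R-KO against a high non-stressed WT value, so these ranks and counts are partly set by that choice. In all 7 settings that can move them 20 of the 50 stayed at least 2-fold lower, among them Ttr, Itpka, Cxcl1, Crym, Guca1a, Ddit4, Ch25h, Pde1a, Icam5 and Dlx1. With the background around each spot 32 did, and 49 kept their direction. An offset of 100 left 30 of the 50, and 11 of the 18 higher genes.

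**Figure D5:**
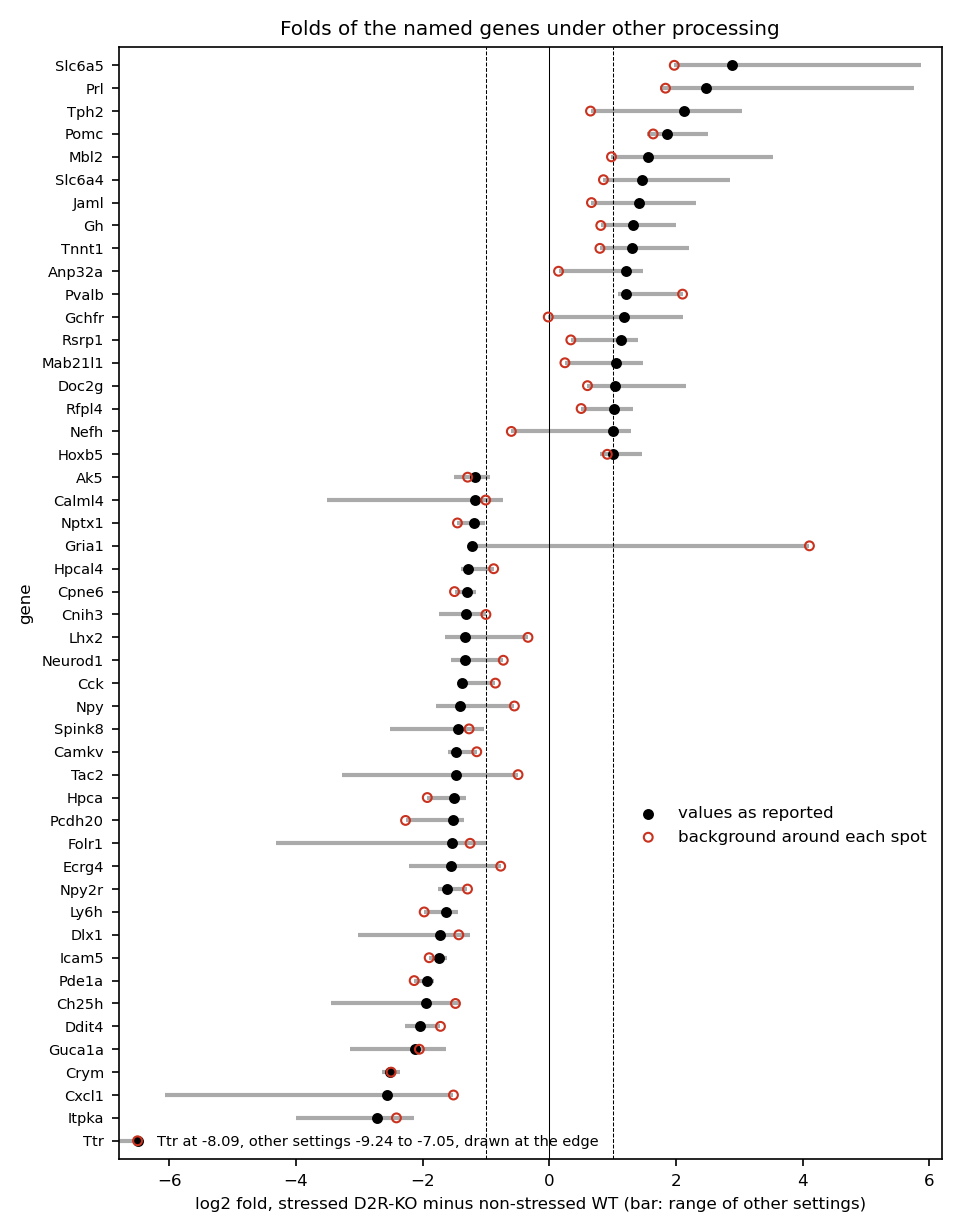
Log2 fold of the 18 higher genes and the 30 largest on the lower side: black dots as reported, grey bars the range over the other settings, red circles the background taken around each spot. Dashed lines mark 2-fold. The circles of Gria1 (4.11), Nefh (-0.60) and Gchfr (-0.016) lie on the other side of 0, and Slc6a5, Prl, Pomc and Pvalb stay beyond 2-fold throughout.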

How the data were processed

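Total RNA was amplified as amino allyl aRNA, labelled with Cy5 and hybridised to Toray arrays, per the labels' protocols. Scans at 3 gains were made per array, per the file headers, and the scanner files hold spot intensity at 635 nm without background subtraction. The authors' deposited intensities equal the spot median minus 1 constant per array, divided by 1 factor, with median 25. The sources used here do not give their other steps.

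Spot medians were background-corrected against the 2736 blank spots per array (limma 3.58.1, nec, offset 50, R 4.3.3), logged to base 2 and quantile-normalized over the 4 arrays. A spot was detected above the blank mean plus 2 SD, which 21406 of 23474 gene spots passed on non-stressed WT and 21504 on stressed D2R-KO. The brightest probe stood for each gene. Genes past 2-fold were called. No test was possible with 1 array per group. Named were called genes at or above the median detected signal and not predicted, at most 30 per direction, plus members past 1.5-fold and defining genes of 38 lists, plus Drd2, Htr1a, Tph2 and Slc6a4. The members and lists were chosen with earlier results of these data known. The procedure was tested on simulated data with planted folds well past 2-fold in spots of clear signal. Planted folds near 2-fold or in dim spots were not tried. Python 3.11.15 was used.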

Additional observations from a re-analysis of the deposited data

How the results depend on the processing

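The counts of 18 higher and 50 lower genes depended on the background, the offset and the threshold. They were 532 and 259 with the brightness around each spot as background, 132 and 235 from the deposited intensities plus 1, 28 and 104 with an offset of 16, 11 and 30 with an offset of 100, and 90 and 232 at 1.5-fold. Offsets move dim genes by construction. For the brightness around each spot the cause was not tested, but that brightness correlated with the spot itself at r = 0.958 on non-stressed WT and 0.933 on stressed D2R-KO. With it Gria1 turned to 4.11, Nefh to -0.60 and Gchfr to -0.016. Median scaling, quantile normalization of the 2 arrays, the deposited intensities plus 25 and the mean of a gene's probes kept both counts within 1.5 times. The 3 filters on detection or signal left them at 18 and 50. Asking for detection on both arrays or for a signal at or above the median could remove none, since all 68 genes met both. These filters therefore say nothing about how stable the counts are. Averaging a gene's probes could not move the 68 genes past 2-fold, which had 1 compared probe each, so 7 settings bear on them. Of 38 list medians, 24 kept their sign in the 8 settings. No paired analysis was possible because each group has 1 array, and for the same reason no array could be left out. Signal over background limits dim genes, since on this scale the dimmest bin of genes cannot show large folds.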
